A study of Canis lupus familiaris with 33 samples.

Results

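A set of 7 genes of epithelial innate defence was followed across normal canine bladder and canine invasive urothelial carcinoma (iUC): the alarmins S100A8 and S100A12, the antiproteases PI3 and SLPI, the iron-sequestering proteins LCN2 and LTF, and the cross-linking enzyme TGM1. They were chosen by gene name from a list of 8 and make up 7 of the 25096 genes in the table normalized by TMM (trimmed mean of M-values, a scaling for library composition). Of the listed genes, 6 were matched by symbol and SLPI, whose row carries the symbol ckpi, by its gene ID, while S100A9 was not analysed here. RNA-seq libraries were made from the bladder mucosa of 4 dogs without bladder disease, labelled normal urothelial cells and separated by fine dissection, and from cystoscopic biopsies of 29 iUC tumors, each from a different treatment-naive dog. All tumors were high grade, and all 33 libraries were run in 1 batch. Values are log2 expression minus the gene's median over the 33 samples, so that 0 is the middle sample and a difference of 1 is a 2-fold change, and levels cannot be compared between genes.

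S100A8, S100A9 and S100A12 are small calcium-binding proteins that neutrophils and stressed squamous epithelium make in large amounts, and that act as danger signals once released, through receptors such as TLR4 and AGER. PI3 (elafin) and SLPI are inhibitors of neutrophil elastase and related serine proteases with a whey acidic protein fold, and both protect mucosal surfaces. LCN2 binds bacterial iron carriers, LTF binds iron itself, and TGM1 cross-links proteins beneath the membrane of stratifying epithelial cells.

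Genes of shared origin lie close together in the dog genome. In the RefSeq gene table (assembly UU_Cfam_GSD_1.0, used for names and neighbours only), S100A8, S100A12 and S100A9 are consecutive protein-coding genes on chromosome 7, with 0 coding genes between neighbours. PI3 and SLPI lie on chromosome 24 with 2 coding genes between them. Whether reads were counted by strand is not given in the sources used here.

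The 2 groups differed in composition and in how many genes were at their lowest value. Smooth muscle markers were present in every normal library: ACTG2 lay between 6.12 and 8.36 in the normals and between -0.92 and 4.41 in the tumors. All 4 smooth muscle genes measured were lower in tumors, beside 45.8% of all genes. The urothelial markers UPK1A and UPK2 overlapped between the groups (adjusted p = 0.962 and 0.935). A gene's minimum was taken as a floor if at least 3 samples were at it. Between 742 and 1004 genes per normal and between 3676 and 8094 per tumor were at such a floor. Across 24471 genes tested with limma, 13821 passed an adjusted p (Benjamini-Hochberg over all genes) of at most 0.05 with at least a 2-fold change, of which 2615 were higher and 11206 lower in tumors, and the median change was -0.84 (-1.11 in the table normalized by DESeq). Over the 18418 genes whose median was above a floor, the median change was -0.01. In bulk tissue, fewer cells of a type and less RNA per cell cannot be told apart.

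Between normal mucosa and iUC the genes moved in opposite directions. S100A8 and TGM1 rose in tumors, by 1.96 and 1.76 on the log2 scale, while the elastase inhibitor PI3 fell by 4.30 and LTF fell by 1.69. In the table normalized by DESeq both falls were called but neither rise was (limma adjusted p = 0.0891 for S100A8 and 0.0554 for TGM1). S100A12, SLPI and LCN2 did not pass the test, although SLPI ranged more widely among tumors than almost any other gene. In all, 4 of the 7 genes were called, beside 56.5% of all genes tested. The 2 called higher stand beside 10.7% of all genes, and the 2 called lower beside 45.8%. The median change over the 7 genes was 1.59.

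**Figure D1:**
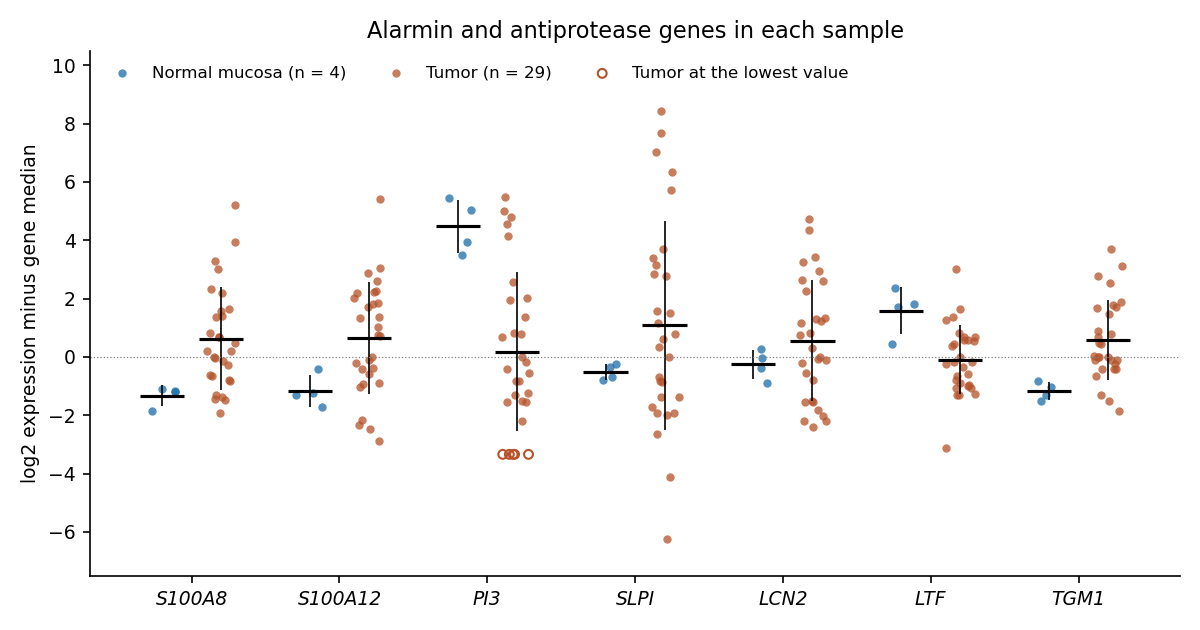
Log2 expression minus the gene median (vertical axis) of the 7 genes in each of 4 normal (blue) and 29 tumor (orange) samples, with the mean (bar) and 1 SD (line); open circles are the 5 tumors at the lowest value of PI3. The normals lie below most tumors for S100A8 and TGM1 and above most tumors for PI3, while SLPI spreads from -6.25 to 8.42 among tumors.

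S100A8, the alarmin subunit of calprotectin, was -1.10, -1.19, -1.84 and -1.16 in normals A to D. In tumors it ranged from -1.91 in tumor 3 through a median of 0.22 to 5.22 in tumor Da6. Of the tumors, 24 lay above every normal, 4 within the range of the normals and 1 below it. From a normal mean of -1.32 ± 0.34 (SD, n = 4), S100A8 rose 3.88-fold to a tumor mean of 0.63 ± 1.75 (SD, n = 29) (log2 change 1.96, SE 0.86, adjusted p = 0.042; exact permutation p = 0.0323, two-sided over all 40920 choices of 4 samples). The call did not hold in the table normalized by DESeq (1.66, adjusted p = 0.0891) or with 1 weight per group (adjusted p = 0.0625). Nor did it hold without any 1 of the normals (adjusted p = 0.0718 without A, 0.0747 without B, 0.11 without C and 0.0755 without D). In those runs the change stayed between 1.78 and 2.03, and the SE was 0.99. The test used 1 variance for both groups, while the SD over tumors was 5.08 times that over normals. Over the 7 genes this ratio ran from 1.465 for LTF to 13.3 for SLPI. With 29 tumors and 4 normals the shared variance mostly follows the tumors, so the SE is larger than separate variances would give. A test with a separate variance per group for each gene was not run.

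S100A12, the neighbouring alarmin gene, was -0.42, -1.24, -1.73 and -1.31 in the normals, and in tumors ran from -2.89 in tumor 1 through a median of 0.76 to 5.42, again in Da6. As many as 21 tumors lay above every normal, but 4 lay below all of them. The difference of 1.82 (SE 0.95) did not pass the test (adjusted p = 0.0837; exact permutation p = 0.0739), with means of -1.17 ± 0.55 (SD, n = 4) and 0.65 ± 1.93 (SD, n = 29).

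PI3 showed the largest difference of the 7 genes. Its values were 5.44, 3.51, 3.95 and 5.04 in normals A to D, and -3.34, -0.41 and 5.49 at the lowest, median and highest tumor. A total of 24 tumors lay below every normal and 5 of these were at the floor, so that their true level is not known, whereas 4 tumors were within the range of the normals and tumor Sp was above it. PI3 fell by 4.30 on the log2 scale, a 19.71-fold decrease (SE 1.33, adjusted p = 0.00475; exact permutation p = 0.00254), from 4.49 ± 0.91 (SD, n = 4) to 0.19 ± 2.71 (SD, n = 29), and the call held in every alternative run.

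The other whey acidic protein inhibitor, SLPI, differed from PI3 in its pattern. The normals lay close together at -0.68, -0.34, -0.79 and -0.23. Tumors spanned 14.67 log2 units, from -6.25 in tumor 7_733858 through a median of 0.61 to 8.42 in tumor 5, and only 1 tumor lay within the range of the normals, with 17 above and 11 below. The SD over tumors, 3.58, was at the 99.97th percentile of all genes (PI3, 99.51; S100A12, 97.56). The means, -0.51 ± 0.27 (SD, n = 4) and 1.08 ± 3.58 (SD, n = 29), did not pass the test (difference 1.59, SE 1.75, adjusted p = 0.42; exact permutation p = 0.39).

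LCN2, the siderophore-binding lipocalin, also spread in both directions. It was -0.88, 0.26, -0.02 and -0.38 in the normals, and -2.40, 0.31 and 4.73 at the lowest, median and highest tumor, with 15 tumors above every normal and 8 below. The difference was 0.81 (SE 1.02, adjusted p = 0.481; exact permutation p = 0.455).

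LTF, lactoferrin, varied less than LCN2 among tumors (SD 1.18 against 2.08) but more among normals (SD 0.81 against 0.49). Normals A to D were at 2.35, 1.72, 1.83 and 0.45, and tumors ran from -3.13 in tumor 1 through -0.18 to 3.01 in tumor Za. Below every normal lay 19 tumors, 9 fell within their range and Za alone was above. LTF fell 3.23-fold (log2 change -1.69, SE 0.60, adjusted p = 0.0122; exact permutation p = 0.0113), from 1.59 ± 0.81 (SD, n = 4) to -0.10 ± 1.18 (SD, n = 29). Leaving out normal A, the highest, ended the call (-1.44, adjusted p = 0.0639).

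TGM1, the keratinocyte transglutaminase, separated the groups most completely among the genes that rose. The normals were at -0.84, -1.52, -1.03 and -1.32, and the tumors at -1.84, 0.04 and 3.69 for the lowest, median and highest, in tumors 12 and 11. All but 3 tumors, 26 of 29, were above every normal. The rise was 3.40-fold (log2 1.76, SE 0.68, adjusted p = 0.0205; exact permutation p = 0.016). It missed the threshold in the table normalized by DESeq (1.47, adjusted p = 0.0554) and without normal B or D (adjusted p = 0.0614 and 0.0541).

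Genes of related function were read from the same fit. Of the 10 other S100 genes tested, 6 rose and 1 fell, beside 10.7% and 45.8% of all genes, with the same counts in the table normalized by DESeq and with the samples centred. The family median was 1.77, beside -0.84 for all genes and -0.01 for the genes whose median was above a floor. S100A14 rose by 3.36 (SE 0.42, adjusted p = 1.002e-08) and S100A2 by 2.91 (SE 0.73, adjusted p = 0.000701), whereas S100A3 fell by 2.35, with 24 tumors at its floor. S100P was 0.78 higher, under the 2-fold threshold. None of the 6 receptor genes tested, among them TLR4 and AGER, was called, beside 56.5% of all genes. The receptor of smallest adjusted p, BSG, differed by 0.53 (adjusted p = 0.0474).

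**Figure D2:**
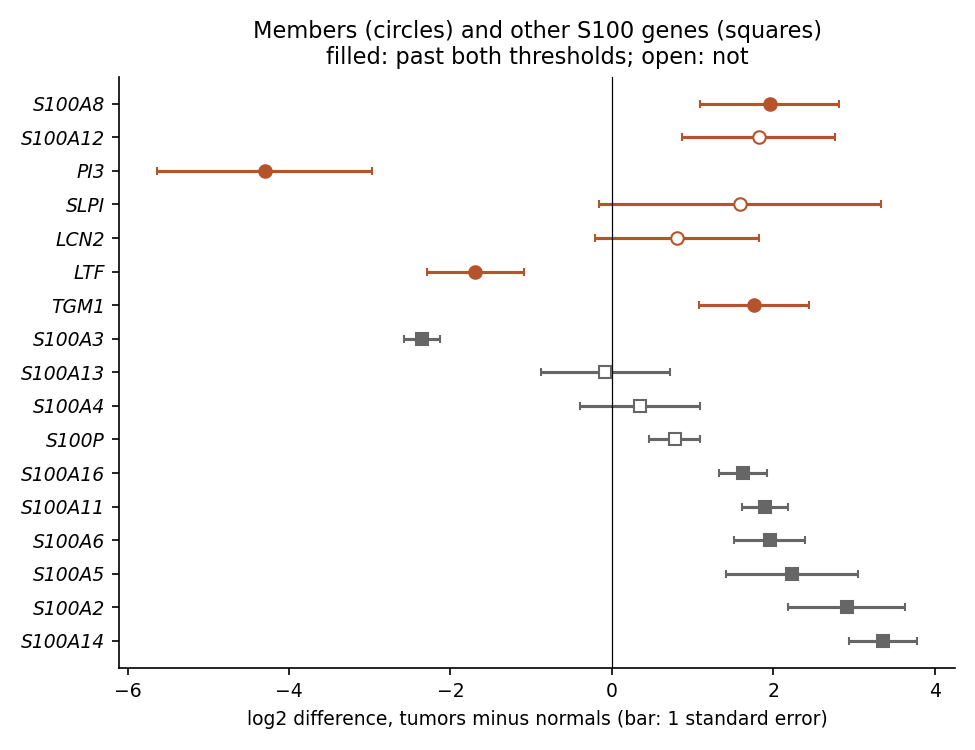
Log2 difference, tumors minus normals (horizontal axis), with 1 standard error, for the 7 genes (orange circles) and 10 other S100 genes (grey squares); filled symbols passed the adjusted p and the 2-fold threshold. S100A14 at 3.36 and S100A2 at 2.91 lie to the right of S100A8 at 1.96, and PI3 at -4.30 lies farthest to the left.

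Serine proteases of the kind the antiproteases act on, together with kallikreins and membrane proteases of epithelium, were lower in tumors in 7 of 10 cases, beside 45.8% of all genes. ST14 (matriptase) rose by 1.62 (adjusted p = 1.477e-06). KLK8, an epidermal kallikrein, fell by 6.38 and was at the floor in 21 tumors, and PRSS8 (prostasin) was at the floor in all 29 tumors and passed the filter only through the normals, so that its place among the 7 was set by the filter. ELANE, neutrophil elastase, was 0.75 lower and was not called (adjusted p = 0.0513), with 21 tumors at the floor. Among 5 transglutaminases and cross-linked partners, 3 rose and 2 fell, beside 10.7% and 45.8% of all genes. TGM2 rose by 2.39, and the envelope proteins EVPL and PPL rose by 2.02 and 1.36. TGM6 fell by 4.60, with 20 tumors at the floor, and TGM3 fell by 3.04, with 7 at the floor.

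Other mucosal defence genes moved both ways, with 4 of 16 higher, beside 10.7% of all genes, and 8 lower, near the 45.8% of all genes. PIGR, the transporter of secretory immunoglobulin, rose by 5.57 (SE 0.58, adjusted p = 2.27e-10), and SPINK5, a kallikrein inhibitor of squamous epithelium, fell by 5.68 (SE 1.15). BPI differed by 0.31 (adjusted p = 0.496). Of 18 cytokines and regulators known to act on these genes, 3 rose and 3 fell (2 and 3 in the table normalized by DESeq). The shares of all genes were 10.7% and 45.8%. The largest falls were those of IL22 (-4.37, 21 tumors at the floor) and IL17F (-3.04, 16 at the floor). The receptor gene IL17RC was 0.78 higher and under the fold threshold.

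Markers of other cell types were read in the same way. Of 13 neutrophil genes 7 were lower in tumors and 0 higher, a share lower near the 45.8% of all genes. In the table normalized by DESeq 9 were lower, beside 12045 of the 24517 genes tested there. MMP8 was at -4.76, MGAM at -3.85 and MPO at -2.90. The receptor CSF3R overlapped between the groups, from -0.57 to 0.30 in normals and -2.27 to 1.86 in tumors (adjusted p = 0.931). The mean of the neutrophil list was 1.51 to 2.25 in the normals and -1.89 to 1.44 in the tumors. The mean of the 4 smooth muscle genes was 5.29 to 7.28 in normals and -1.19 to 4.07 in tumors. Both lists were higher in normals, as PI3 and LTF were, and their part in either fall was not tested. Macrophage genes were called in 2 of 10 cases, beside 56.5% of all genes. These were CD68 at 1.95 and MARCO at -3.76, the latter with 10 tumors at the floor. Of the neutrophil genes, ELANE was at the floor in 21 tumors, CAMP in 17, CTSG in 11, MMP8 in 5 and CD177 in 4, whereas CSF3R, MPO, CD68, CSF1R, UPK1A, UPK2, UPK3A, ACTG2 and MYH11 were above it in every sample.

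Epithelial and squamous genes did not share 1 direction. All 4 epithelial genes rose (3 in the table normalized by DESeq), beside 10.7% of all genes, led by CLDN7 at 2.37 and EPCAM at 2.18. Their median change was 2.16, beside 1.96 for S100A8 and 1.76 for TGM1. The part of the epithelial cell share in the rises of S100A8, TGM1 and the S100 family was not tested. Of 11 luminal genes 7 rose (2 in the table normalized by DESeq), beside the same share, ELF3 by 2.27, while KRT20 fell by 3.75. Of 17 squamous genes, 2 rose, near the 10.7% of all genes, and 4 fell, under the 45.8% of all genes. In the table normalized by DESeq 2 rose and 6 fell. Those that fell included DSG1 (-5.47) and KLK10 (-4.96). The list mean of the squamous genes was 0.57 to 1.07 in normals and -1.75 to 2.13 in tumors, so that single tumors lay on both sides of the normals, as for SLPI and LCN2.

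Among the 29 tumors, the question was whether these genes varied together. S100A8 and S100A12 did, as did S100A8 and SLPI, and the other 19 pairs did not pass the test. Each pair was tested by regressing every gene on 1 member, and was called where the adjusted p over 22707 genes was at most 0.05 in both regressions. Such regressions called 0.674% of all genes for S100A8, 0.942% for S100A12, 0.0528% for PI3, 0.0264% for SLPI, 0.0352% for LCN2, 0.0573% for LTF and 0% for TGM1. The median r of the 21 pairs was 0.289, and 17 were positive.

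**Figure D3:**
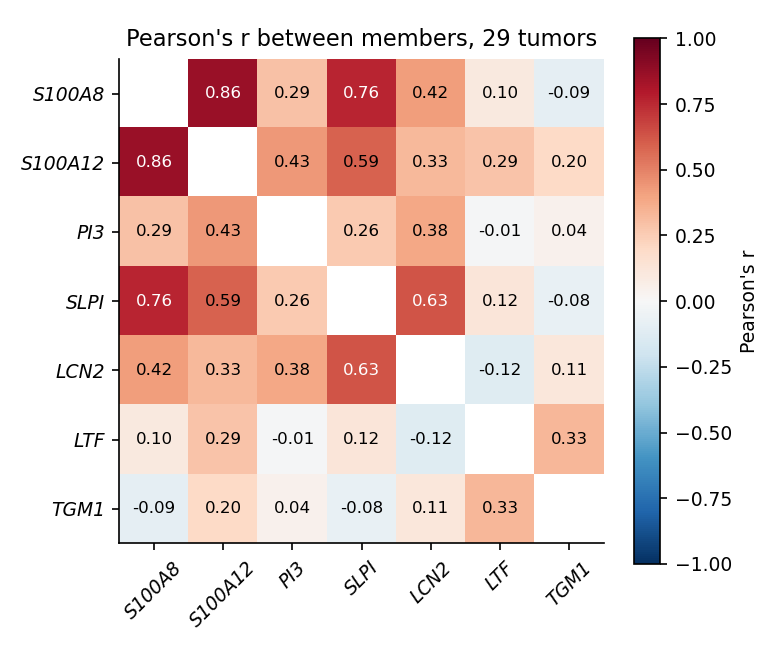
Pearson's r (colour and number) between each pair of the 7 genes over the 29 tumors. S100A8 with S100A12 (0.86) and S100A8 with SLPI (0.76) are the highest values, followed by SLPI with LCN2 (0.63), and LTF and TGM1 lie near 0 with most of the others.

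S100A8 and S100A12 had the closest relation, with Pearson's r = 0.863 and Spearman's rho = 0.885 (permutation p = 1e-05 for both, the smallest that 100000 permutations can give; adjusted p = 4.819e-06). The r of 0.863 stood at the 99.9956th percentile of all genes regressed on S100A8. Without Da6 and JE, the 2 tumors farthest from the median of S100A8, r was 0.806. Over the 24 tumors left without the 5 highest in S100A8 it was 0.781 (adjusted p = 0.0441). A single gene was closer to S100A8, and the same gene was closest to S100A12. This entry, ENSCAFG00000029470, carries no symbol in the files and is not named here, and of all genes it alone has the same 9 functional terms as S100A8 in the deposited annotation, receptor binding and calcium binding among them. Its r was 0.902 with S100A8 (adjusted p = 6.645e-08) and 0.921 with S100A12 (adjusted p = 3.554e-09). It was -0.48, -1.24, -1.52 and -1.96 in normals A to D, and ran from -2.91 through a median of 0.56 to 5.31 in tumors, the highest again in Da6. The difference between the groups, 1.73 (SE 0.89), did not pass the test (adjusted p = 0.0806).

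The relation of S100A8 with SLPI was r = 0.758 (permutation p = 1e-05) and rho = 0.689 (permutation p = 5e-05), with an adjusted p of 0.00754. The 5 tumors highest in S100A8 (Da6, JE, 2, 5 and Po) were also the 5 highest in SLPI. In these tumors SLPI lay between 5.72 and 8.42, above a gap to 3.70 in tumor 9, the next highest. Over the other 24 tumors r was 0.472 and the pair was not called (adjusted p = 0.903); these tumors were left out by their S100A8 level after the values were seen, and the range of S100A8 that is left is narrower. It was also lost without Da6 and JE alone (r = 0.71, adjusted p = 0.0523), on ranks (adjusted p = 0.233) and with the number of genes at the floor as a covariate, where r was 0.725 (adjusted p = 0.108). That number was low in tumors 5 (3676) and Po (4180) but near the tumor median of 6854 in Da6 (6939), JE (6675) and 2 (6999). Over all tumors it had r = -0.512 with SLPI (permutation p = 0.00408; rho = -0.256).

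**Figure D4:**
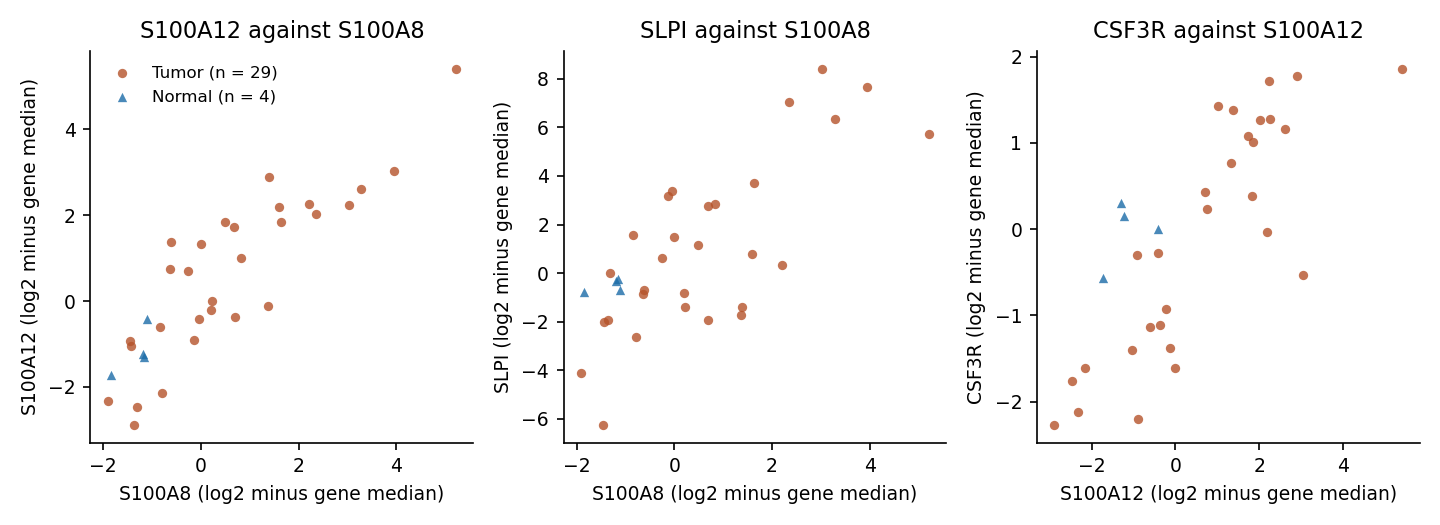
S100A12 against S100A8, SLPI against S100A8 and the neutrophil receptor CSF3R against S100A12, each axis in log2 minus the gene median, in 29 tumors (orange circles) and 4 normals (blue triangles). S100A12 follows S100A8 along the whole range, whereas in the middle panel 5 tumors with SLPI above 5.7 stand apart from the rest.

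The next pairs in order were not called. SLPI and LCN2 had r = 0.629 (permutation p = 0.00028; rho = 0.627), an adjusted p of 0.0838 and r = 0.575 without tumors 5 and JE. S100A12 and SLPI had r = 0.591 (permutation p = 0.0007), with an adjusted p of 0.0963. PI3 and SLPI, both whey acidic protein inhibitors, had r = 0.259 (permutation p = 0.174), and LCN2 and LTF, both iron-sequestering, had r = -0.12 (permutation p = 0.536). TGM1 had no called relation with any member, and its highest r was with LTF, at 0.329 (permutation p = 0.0802), and was 0.083 without the 2 tumors farthest in LTF, Za and 1, and 0.438 without the 2 farthest in TGM1.

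**Figure D5:**
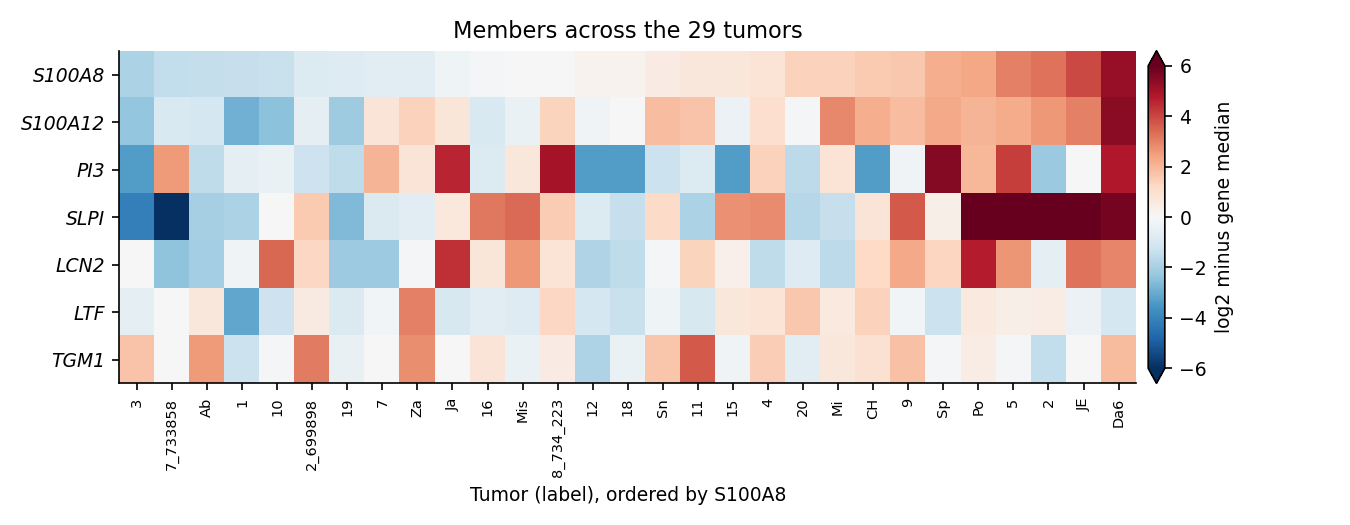
Log2 expression minus the gene median (colour, saturating at 6 in either direction) of the 7 genes (rows) in the 29 tumors (columns, by label), ordered by S100A8. S100A12 tends from low to high values from left to right with S100A8, SLPI is high in the last 5 tumors, and PI3, LTF and TGM1 are scattered along the order.

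Single tumors carried several of the extremes. Da6 was among the 5 highest tumors for 6 of the 7 genes (all but LTF, where it was among the 5 lowest), at 5.22 for S100A8, 5.42 for S100A12, 4.81 for PI3, 5.72 for SLPI, 2.94 for LCN2 and 1.90 for TGM1. JE was among the 5 highest for 4 genes, and tumors 2, 5 and Po for 3 each. Tumors 19, 1, 3 and Ab were each among the 5 lowest for 4 genes, and of these Ab was among the 5 highest for TGM1, at 2.55. Without Da6, the same 4 genes passed the test against normals (S100A8 by 1.79, adjusted p = 0.0347), and both pairs were still called, with r = 0.82 and 0.756. The 5 tumors highest in PI3 (Sp, 8_734_223, Da6, Ja and 5) included 2 of the 5 highest in S100A8, and the 5 highest in LTF included none.

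Genes outside the list were ranked by their likeness to each member. Among 11875 genes with a symbol other than the members, the most like S100A12 was CSF3R, the receptor for granulocyte colony-stimulating factor (r = 0.842, adjusted p = 2.278e-05), followed by CYP4F3 (0.813) and the myeloid adhesion receptor ADGRE3 (0.793). For S100A8 these were ARHGAP25 (0.731), CAPN14 (0.717) and the B-cell receptor component CD79A (0.711). Of 13 neutrophil genes, 3 were called with S100A12, beside 0.942% of all genes, among them CSF3R and IL1R2 (0.595). The median r of this list with S100A12 was 0.446, and MPO (0.026) and CD177 (0.16) were not called. The macrophage gene MARCO was also called with S100A12 (0.668, adjusted p = 0.015). From the neutrophil list CSF3R alone was called with S100A8 (0.609). Among 17 squamous genes S100A8 was called with DSG1 (0.621) and KRT13 (0.63). With S100A12 these had r = 0.51 (adjusted p = 0.122) and 0.546 (adjusted p = 0.0742), and the difference between the alarmins was not tested. When S100A8 and S100A12 entered 1 regression, CSF3R had a slope of 0.87 on S100A12 (SE 0.13, adjusted p = 0.00568) and -0.36 on S100A8 (adjusted p = 0.353). In the same regression neither alarmin was called for DSG1 (adjusted p = 0.373 on S100A8 and 0.94 on S100A12) or KRT13 (0.426 and 0.993). SLPI had a slope of 1.99 on S100A8 (SE 0.50, adjusted p = 0.111) and -0.46 on S100A12 (adjusted p = 0.768). The slopes on S100A8 and S100A12 passed the threshold for 0.022% and 0.0264% of all genes.

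Of 18 cytokine and regulator genes, 2 were called with S100A8 and 3 with S100A12, beside 0.674% and 0.942% of all genes. CXCL8, the neutrophil chemoattractant, was called with S100A12 (r = 0.731) and with S100A8 (0.613). IL1B (0.606) and OSM (0.65) were called with S100A12, and IL17F (0.624) with S100A8. SERPINA1, the circulating elastase inhibitor, was called with both (0.75 and 0.641). The 10 other S100 genes were not, with median r of -0.029 for S100A8 and -0.0973 for S100A12.

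The remaining genes had other nearest genes. The genes most like SLPI included DNAI2 (r = 0.775) and SERPINB13 (0.723), a serpin of squamous epithelium. For PI3 they were CEP85L (0.771), CFAP161 (0.718) and the interferon-induced BATF2 (0.711). LCN2 was most like SMC1B (0.727), C1QTNF12 (0.712) and the prolactin receptor PRLR (0.689), and LTF was most like TSPAN13 (0.721), TGOLN2 (0.716) and ADD2 (0.699). All of these passed the regression test, while the nearest genes of TGM1, DCLK1 (0.677), DNAH17 (0.676) and DNAJB4 (0.666), did not.

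Finally, the genes were set against the mean z score of 4 marker lists over the tumors, 28 relations in all. The neutrophil score called 1.55% of all genes, the macrophage score 3%, the squamous score 0.119% and the luminal score 2.3%. S100A12 was called with the neutrophil score (r = 0.693, permutation p = 5e-05; rho = 0.729; adjusted p = 0.00757), and r was 0.697 without the 2 tumors of most distant score. S100A8 was called with the luminal score, negatively (r = -0.555, permutation p = 0.00196; adjusted p = 0.0494), but rho was -0.311 and r was -0.276 without 2 tumors, so that this relation rests on them. It was not called in the table normalized by DESeq (adjusted p = 0.0626) or with the median z (adjusted p = 0.067). With the squamous score, S100A8 had r = 0.65 (adjusted p = 0.0522) and SLPI r = 0.651 (adjusted p = 0.0535), just outside the threshold. Both were inside it in the table normalized by DESeq (adjusted p = 0.0411 and 0.0426), and both were farther outside with the median in place of the mean z (adjusted p = 0.188 and 0.187) and without 2 tumors (adjusted p = 0.527 and 0.47). S100A8 had r = 0.482 with the neutrophil score (adjusted p = 0.121), and S100A12 had r = 0.533 with the squamous score (adjusted p = 0.162). S100A12 also had r = 0.48 with the macrophage score (adjusted p = 0.113). None of these was called, and the neutrophil and macrophage scores had r = 0.65 with each other. PI3 had r = 0.534 with the neutrophil score (adjusted p = 0.067). LCN2, LTF and TGM1 were not called with any score, and LTF reached r = 0.461 with the macrophage score (adjusted p = 0.145). The 4 smooth muscle genes had a median r of 0.455 with PI3 and 0.0923 with LTF, and none was called with either. The part of neutrophils in the level of S100A12 was not tested.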

How the data were processed

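The authors sequenced paired-end libraries depleted of ribosomal RNA, aligned the reads to CanFam 3.1 with COBWeb in Strand NGS 3.1, and normalized the genes separately by TMM and by DESeq. The deposited values are on a log2 scale centred on each gene's median, and are not counts, so that no count test was run and the depth behind a value is unknown. The last line of each analysed table was incomplete and was left out.

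Genes above their floor in at least 4 samples were tested (all 7 members passed) by lmFit and eBayes with a trend (limma 3.58.1, R 4.3.3), on the log2 values as deposited and without a pseudocount. In the regressions, the gene regressed on was left out of the adjustment. The design allowed for 28 pairs of 8 genes, and 21 pairs of 7 were tested. Exact and 100000-resample permutation tests were run in Python 3.11.15 with scipy 1.17.1. In simulated data over 24471 genes, 185 of 200 genes given a log2 change of 3 between tumors and normals were called, with 10 false calls, and 196 of 200 genes of r 0.8 in the regression over tumors, with 15. Recovery at a log2 size below 3, as for S100A8, LTF and TGM1, or at r below 0.8, was not tested. The dogs are separate animals, so that the spread between samples is biological and technical together. Members and gene lists were chosen with earlier results of these data known. Genes named are the members, and of each list the 2 called genes of largest change and the uncalled gene of smallest adjusted p. Further named are the 3 genes most like each member (some genes are not reported here) and genes on which a result turns; TGM2, EVPL, PPL, ST14, S100A3 and ENSCAFG00000029470 were named after their values were seen. The subtype given to each tumor was not used here. Alternatives were the authors' table normalized by DESeq, other variance settings and filters, centred samples, ranks, and samples left out.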

Additional observations from a re-analysis of the deposited data

Results flagged for a closer look

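S100A8 in normal C, at -1.84, lay apart from normals A, B and D, which were between -1.19 and -1.10. The gap was 0.876 of the range of the 4 normals, above the 95% critical value of Dixon's test. The normals of 7 genes were looked at in this way, and chance alone flags about 1 in 20 such groups. Without normal C the difference of S100A8 was 1.78 and was not called (adjusted p = 0.11).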

How the results depend on the processing

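No called result changed its direction under any alternative. In the table normalized by DESeq, 1377 genes were called higher and 2 members were called, PI3 and LTF. With genes required above the floor in at least 17 samples, 8138 genes were called, 5543 of them lower. Leaving out 1 normal at a time gave 2 to 3 called members, of which PI3 was called each time. Pairs of members fell to 1, S100A8 with S100A12, on ranks, with the number of genes at the floor as a covariate, without the 2 farthest tumors, and without the 5 tumors highest in S100A8, and 1 relation with a marker score was left without the 2 tumors of most distant score. The covariate and the settings that left out Da6 or the 5 tumors were chosen after seeing the data. Of the other comparisons with an alternative, 50 counts stayed within 1.5 times the reported one, and for single genes, pairs and slopes 344 values kept their side of the threshold, 17 lost it and 3 gained it. No paired analysis was possible because the normals and tumors come from different dogs and share no replicate numbers. Depth per sample is unknown, and 5 tumors at the floor of PI3 limit the size of its fall. With 4 normals, S100A8 and TGM1 lie close to the threshold.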
